A study of Mus musculus with 6 samples.

Results

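Endothelial cells line the blood vessels of the liver, and 10 of their marker genes were followed here across 6 whole liver libraries. The genes were chosen as known markers, by symbol through their Ensembl identifiers, with earlier results of these data known, and all 10 had a row among the 12027 rows of the count table. Of these, 5 mark the sinusoids: Stab1 (ENSMUSG00000042286), Stab2 (ENSMUSG00000035459), Dnase1l3 (ENSMUSG00000025279), Lyve1 (ENSMUSG00000030787) and Clec4g (ENSMUSG00000074491). The other 5 mark endothelium in general: Vwf (ENSMUSG00000001930), Pecam1 (ENSMUSG00000020717), Kdr (ENSMUSG00000062960), Cdh5 (ENSMUSG00000031871) and Eng (ENSMUSG00000026814).

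The study sequenced messenger RNA from livers of male C57BL/6 mice, 8 weeks old, at set times after partial hepatectomy (PHX, surgical removal of part of the liver). It had 6 groups: OGT-KO (genotype OGT-/y) at 28 days with its OGT control (OGTfl/y), OGA-KO (OGA-/-) at 14 days with its OGA control (OGAfl/fl), and OGA-KO at 28 days with the OGA control of that time. All mice had undergone PHX, the knockouts were specific to hepatocytes, and the controls carried the floxed alleles; the Cre driver is not given in the sources used here. OGT attaches the sugar O-GlcNAc to proteins and OGA removes it. Each group was 1 library made from equal amounts of RNA of 3 mice, run in 2 lanes. With 1 library a group there was no replicate error to judge a difference by, and the intervals of single ratios cover counting error only.

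Liver sinusoids are lined by an unusual endothelium, with open pores and no continuous basement membrane, which filters plasma into the space next to the hepatocytes. Its cells remove waste molecules from blood through scavenger receptors, and they are known to lose these features and to take on those of ordinary capillaries when a liver becomes scarred. General endothelial genes serve junctions, blood clotting and responses to VEGF and BMP ligands in vessels of every organ. Some markers are shared with other cells, and only examples are given here. Macrophages also make Stab1 and Lyve1, lymphatic vessels make Lyve1, and platelets carry Vwf and Pecam1.

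Library totals ranged from 20433100 to 29327722 counts, and the markers held between 53 and 4498 counts in a library. Oga had 282 counts in OGA-KO against 1525 in OGA control at 14 days, and 317 against 1760 at 28 days. Ogt had 1205 counts in OGT-KO against 1339 in OGT control (43.2 and 58.0 CPM), a smaller gap than that of Oga in either OGA pair. The OGA libraries had 73.4 to 79.4 CPM of Ogt, so OGT control was itself below them. Reads from outside a deleted stretch and from cells other than hepatocytes are counted too, and their part in the Ogt values was not tested. Hepatocyte markers, 10 genes led by Alb, summed to 60021 CPM (the count relative to the library's total, corrected by a TMM composition factor) in OGT-KO, against 92097 in OGT control and 101008 to 107889 in the OGA libraries. Composition differed most in OGT-KO: scaling by library totals instead of TMM raised the median log2 ratio of all genes in that pair by 0.37.

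The stretch of 250 bases before the annotated start was available for 5 of the 10 genes, from RefSeq on build GRCm38.p6. Those of Stab1 (chr14:31168642-31168891, minus strand) and Eng (chr2:32646345-32646594, plus strand), both higher in OGT-KO, are shown first, then those of Stab2 (chr10:87007943-87008192, minus strand) and Clec4g (chr8:3720652-3720901, minus strand), both lower there. They are written in the direction of the gene, and capitals mark matches on either strand to AGGAAG, a core bound by ETS factors such as ERG and FLI1, and to a GATA form. For GATA factors AGATAA was searched, and AGATAG likewise, together with the forms opening with T, which are TGATAA and also TGATAG.
Stab1: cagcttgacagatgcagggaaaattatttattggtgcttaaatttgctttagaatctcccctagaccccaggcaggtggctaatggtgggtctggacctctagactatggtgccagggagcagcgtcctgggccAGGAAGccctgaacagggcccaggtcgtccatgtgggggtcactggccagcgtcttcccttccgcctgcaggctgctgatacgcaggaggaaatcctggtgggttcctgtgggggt
Eng: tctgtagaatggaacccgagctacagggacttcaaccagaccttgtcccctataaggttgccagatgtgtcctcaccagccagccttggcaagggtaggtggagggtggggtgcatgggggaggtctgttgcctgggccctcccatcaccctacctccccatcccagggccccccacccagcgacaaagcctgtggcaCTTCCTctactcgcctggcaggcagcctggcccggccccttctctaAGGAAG
Stab2: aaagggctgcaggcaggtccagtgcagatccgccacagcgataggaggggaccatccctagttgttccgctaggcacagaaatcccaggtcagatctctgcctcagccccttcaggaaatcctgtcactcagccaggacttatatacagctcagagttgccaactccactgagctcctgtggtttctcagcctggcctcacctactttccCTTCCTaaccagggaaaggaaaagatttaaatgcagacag
Clec4g: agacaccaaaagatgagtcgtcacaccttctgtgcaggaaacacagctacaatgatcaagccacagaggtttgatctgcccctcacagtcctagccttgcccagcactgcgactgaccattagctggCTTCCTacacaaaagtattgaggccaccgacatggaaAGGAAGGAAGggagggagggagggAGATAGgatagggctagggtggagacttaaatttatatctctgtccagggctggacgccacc
The ETS core was in 4 of these 5 stretches, Kdr lacking it, and in 29.5% of all 32851 RefSeq stretches of that length. A GATA form was in 1 of the 5, that of Clec4g, and in 26.5% of all stretches. Both genes that were higher in OGT-KO held the ETS core, and of the 3 that were lower Stab2 and Clec4g held it and Kdr did not. The count files use build mm39, and these positions are those of the sequence table alone.

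The OGT pair compares the livers labelled OGT-KO and OGT control after PHX. Sinusoidal markers did not move as 1 group. Stab1 and Lyve1 rose almost 4-fold, while Dnase1l3, Stab2 and Clec4g fell. Among the general markers Eng rose, Kdr fell, and Vwf, Pecam1 and Cdh5 did not pass the test. The rule of size counted a gene with a fold of 2 or more whose higher value reached 1 CPM. It took in 2 higher markers (Stab1 and Lyve1) and 1 lower marker (Dnase1l3) of 10, where it took in 28.1% of all genes in this pair, 16.4% higher and 11.7% lower. By library totals 77.3% of the genes past that rule were higher, against 58.3% with TMM.

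The edgeR quasi-likelihood fit over all 6 libraries had terms for line, day, OGA-KO and OGT-KO. The 1 residual degree of freedom measures how far the OGA-KO effect changed with time, and the test borrows that spread for the OGT pair, which had none of its own. With that assumption it called 52.6% of all genes for OGT-KO, 26.1% rising and 26.6% falling, so 7 of 10 markers called, 3 rising and 4 falling, is to be read beside a very broad background. By library totals the fit called 5334 genes rising and 1862 falling, against 3134 and 3198 with TMM. In bulk liver RNA, fewer cells of a type and less RNA per cell cannot be told apart.

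**Figure D1:**
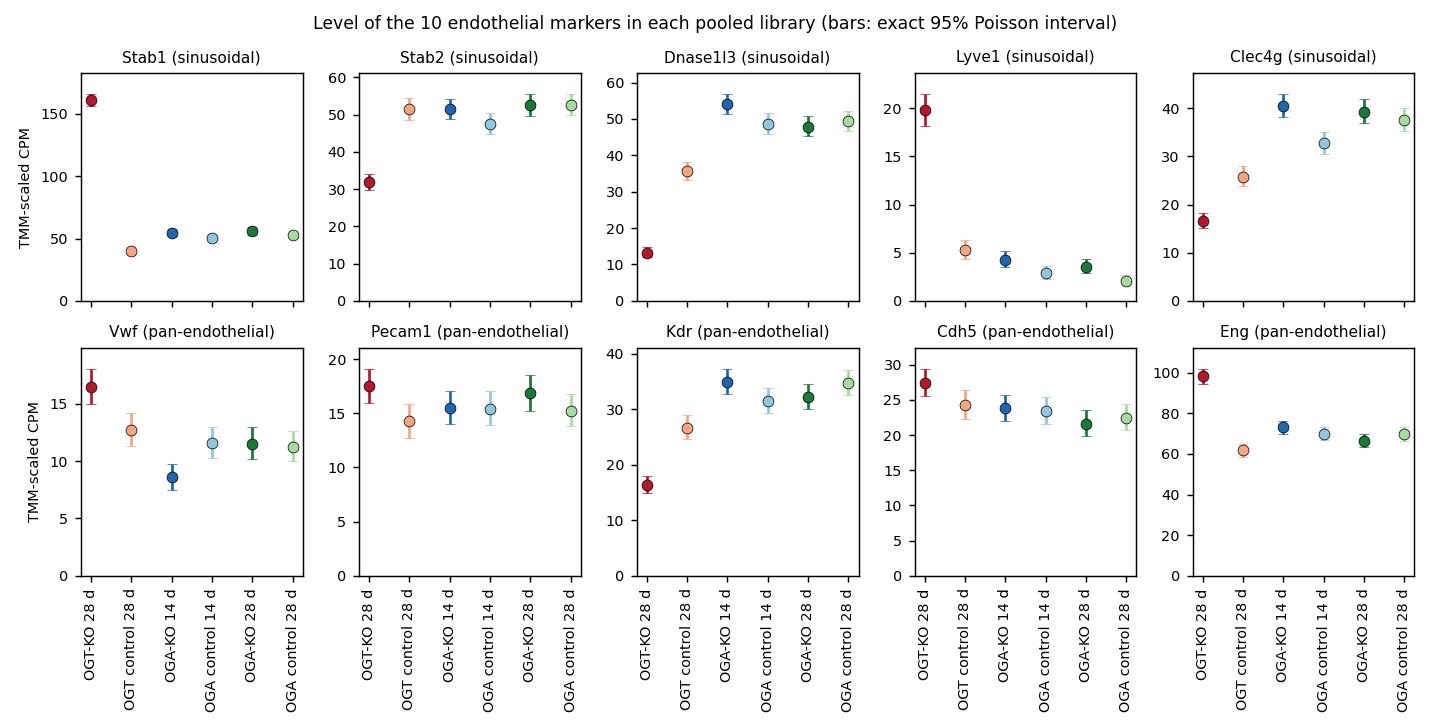
Level of each marker in each of the 6 libraries, as TMM-scaled CPM on a linear axis from 0; each point is 1 pooled library and each bar its exact 95% Poisson interval, for counting error only. Stab1 and Lyve1 stand high in OGT-KO, at 161 and 19.8 CPM, and Dnase1l3 stands low there, at 13.3 CPM.

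Stab1 encodes stabilin-1, a scavenger receptor that takes up altered proteins and lipoproteins. It had 4498 counts in OGT-KO against 932 in OGT control, or 161 and 40.4 CPM. In the OGA libraries it had 54.7 CPM in OGA-KO and 50.2 in OGA control at 14 days, and 55.8 and 53.2 CPM at 28 days. OGT-KO stood apart from 5 libraries whose highest value was 1.38 times their lowest. The log2 ratio in the OGT pair was 1.99 (95% counting interval 1.89 to 2.10, edgeR adjusted p = 0.000167). In the reference annotation 112 exonic bases of Stab1, or 1.09% of its length, lay within Nt5dc2 on the opposite strand, which had 589 counts in OGT-KO against 110 in OGT control.

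Stab2 encodes stabilin-2, the related receptor that clears hyaluronan from blood. It had 31.9 CPM in OGT-KO against 51.5 in OGT control (890 and 1188 counts), and 47.6 to 52.7 CPM in the OGA libraries. With TMM, OGT-KO was thus the low library and the other 5 were close together. By library totals OGT-KO had 43.6 CPM, near the 44.0 to 47.6 of the OGA libraries, and OGT control had 54.4 (log2 -0.32, edgeR adjusted p = 0.0421). Its log2 ratio was -0.69 (-0.82 to -0.56, edgeR adjusted p = 0.00368). The DESeq2 Wald test did not call it (adjusted p = 0.0597). Within a library neither scaling nor gene length affects how a ratio of 2 genes compares with that of another library. The ratio of Stab1 to Stab2 counts was 5.05 in OGT-KO (4.70 to 5.44) against 0.785 in OGT control (0.719 to 0.855), and 1.01 to 1.06 in the OGA libraries. The 2 stabilin genes therefore went apart in OGT-KO whatever the scaling.

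Dnase1l3 encodes a secreted enzyme that digests DNA in blood. It had 370 counts in OGT-KO against 822 in OGT control, or 13.3 and 35.6 CPM, and 47.9 to 54.0 CPM in the OGA libraries. OGT-KO was lowest, and OGT control was itself below the OGA libraries. The log2 ratio of the pair was -1.42 (-1.61 to -1.25, edgeR adjusted p = 0.000686). Set against Cdh5 in the same library, Dnase1l3 counts were 0.484 of the Cdh5 counts in OGT-KO, against 1.47 in OGT control and 2.08 to 2.27 in the OGA libraries.

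Lyve1 encodes a receptor for hyaluronan and had the fewest counts of the 10 markers in every library but OGT-KO. It had 552 counts in OGT-KO against 122 in OGT control, or 19.8 and 5.29 CPM. The OGA libraries held 116 counts in OGA-KO and 71 in OGA control at 14 days, and 88 and 53 at 28 days, or 2.02 to 4.29 CPM. The log2 ratio of the OGT pair was 1.89 (1.62 to 2.20, edgeR adjusted p = 0.00115). OGT control also exceeded OGA control at 28 days by a log2 of 1.35 (0.91 to 1.88), which made Lyve1 the only marker past 2-fold between those controls, where 10.4% of all genes passed and 4.72% were higher.

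Clec4g encodes LSECtin, a lectin of sinusoidal endothelium. It had 16.6 CPM in OGT-KO against 25.8 in OGT control (463 and 595 counts), and 32.8 to 40.5 CPM in the OGA libraries. Again OGT-KO was lowest and OGT control next. Its log2 ratio was -0.63 (-0.81 to -0.46, edgeR adjusted p = 0.0124). The call was lost by library totals (log2 -0.26, adjusted p = 0.142), without the line term (adjusted p = 0.0702) and by DESeq2 (adjusted p = 0.169). The ratio of Lyve1 to Clec4g counts was 1.19 in OGT-KO against 0.205 in OGT control, and 0.0539 to 0.106 in the OGA libraries.

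**Figure D2:**
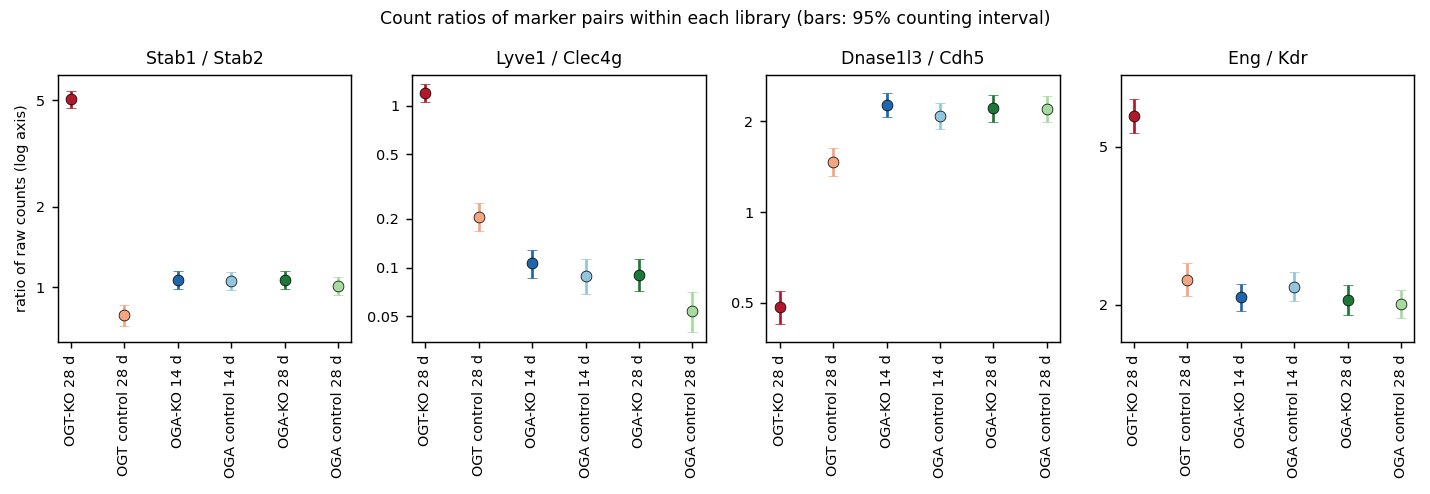
Ratios of raw counts of 4 marker pairs within each library, on log axes; points are single libraries and bars 95% counting intervals. In every pair the OGT-KO point lies outside the other 5, with Stab1 over Stab2 at 5.05 and Dnase1l3 over Cdh5 at 0.484. This position followed from the single levels, because in each pair OGT-KO was above the other 5 libraries for one gene and below them for its partner.

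Eng encodes endoglin, a co-receptor for ligands of the BMP and TGF-beta family. It had 98.1 CPM in OGT-KO against 61.7 in OGT control (2740 and 1425 counts), and 66.4 to 73.1 CPM in the OGA libraries. Its log2 ratio was 0.67 (0.58 to 0.76, edgeR adjusted p = 0.00412), a call lost when the line term was dropped (adjusted p = 0.0599). Of its exonic length 1.51% lay within Fpgs on the opposite strand, which had 1011 counts in OGT-KO against 3179 in OGT control.

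Kdr encodes the main receptor for VEGF-A on endothelium. It had 16.4 CPM in OGT-KO against 26.7 in OGT control (458 and 617 counts), and 31.5 to 35.0 CPM in the OGA libraries. Its log2 ratio was -0.70 (-0.88 to -0.53, edgeR adjusted p = 0.00962). The call was lost by library totals (log2 -0.33, adjusted p = 0.0868) and by DESeq2 (adjusted p = 0.132). The ratio of Eng to Kdr counts was 5.98 in OGT-KO against 2.31 in OGT control, and 2.01 to 2.22 in the OGA libraries.

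The remaining general markers differed little. Vwf, the clotting protein that tethers platelets, had 16.5 CPM in OGT-KO against 12.7 in OGT control (log2 0.37, edgeR adjusted p = 0.166). Pecam1, an adhesion molecule of endothelial junctions, had 17.5 against 14.3 CPM (log2 0.29, edgeR adjusted p = 0.14), and Cdh5, the cadherin of those junctions, 27.4 against 24.3 CPM (log2 0.17, edgeR adjusted p = 0.271). Each was above all 5 other libraries in OGT-KO. By library totals these 3 genes passed the edgeR test, with log2 ratios of 0.74, 0.66 and 0.54 (adjusted p = 0.0242, 0.0123 and 0.011). Whether they were called thus depended on the scaling, while all 3 ratios were above 0 by either. With TMM the summed general markers had 176 CPM in OGT-KO against 140 in OGT control, and 149 to 156 CPM in the OGA libraries. Kdr was lower in OGT-KO by either scaling. Across the 10 markers OGT-KO lay above the 5 other libraries for 6 and below them for 4, where it lay above them for 36.9%, below them for 36.7% and outside them for 73.6% of all genes with at least 1 CPM.

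**Figure D3:**
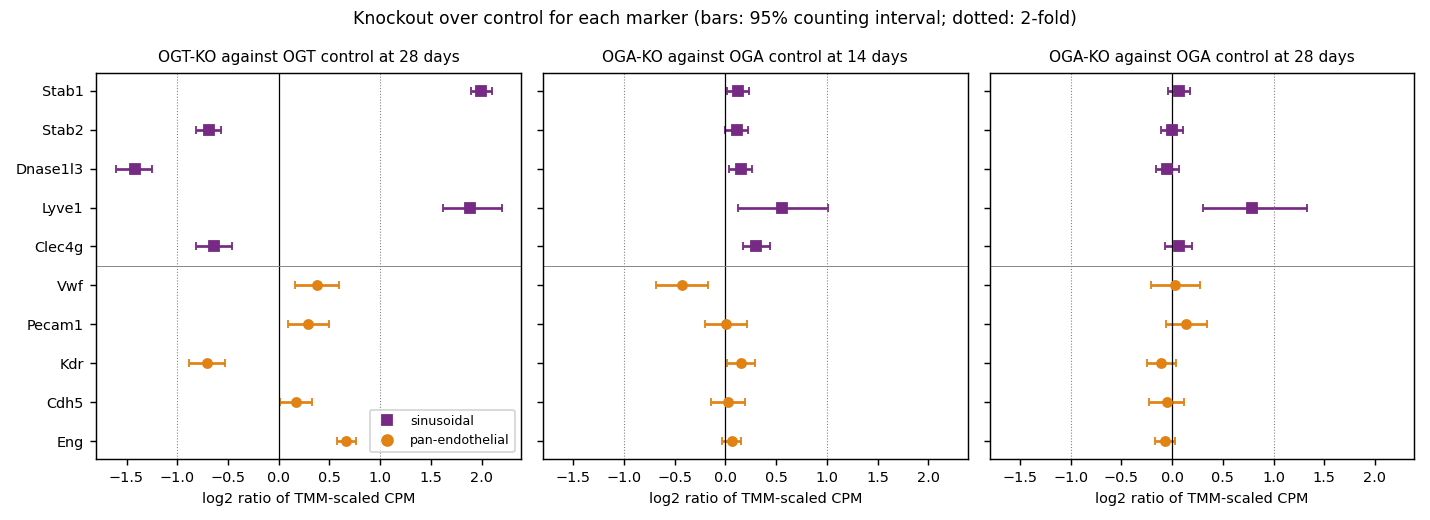
Log2 ratio of knockout over control for each marker in the 3 knockout comparisons, with 95% counting intervals; squares are sinusoidal and circles general endothelial markers, and dotted lines mark 2-fold. In the OGT pair the squares run from -1.42 to 1.99, while in both OGA pairs no marker reaches 2-fold.

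The means of the sinusoidal and the general markers were close in the OGT pair, while the single sinusoidal genes lay on both sides of 0. The mean log2 ratio was 0.23 for the sinusoidal markers and 0.16 for the general ones, a difference of 0.07 (-0.05 to 0.18). The ratios of single genes had an SD of 1.60 among the 5 sinusoidal markers and 0.52 among the 5 general markers. With medians in place of means the difference was -0.93. Without Stab1 and Lyve1, which macrophages also make, it was -1.08. Both had risen and the other 3 sinusoidal markers had fallen, so a negative value followed from leaving them out. The same holds for the summed counts of those 3 that come next. Summed counts of Stab2, Dnase1l3 and Clec4g were 0.351 of the general sum in OGT-KO (0.332 to 0.371), against 0.808 in OGT control (0.767 to 0.851), and 0.85 to 0.94 in the OGA libraries. With all 5 sinusoidal genes the same ratio was 1.38 in OGT-KO against 1.13 in OGT control, and 1.20 to 1.34 in the OGA libraries.

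Per length, in CPM per kilobase of annotated exon, the order of the markers changed in OGT-KO. Eng was highest in each of the 6 libraries, with 24.2 in OGT-KO and 15.3 in OGT control, although in OGA-KO at 28 days its counting interval did not separate it from Clec4g. Behind it stood Stab1 (15.7), Lyve1 (6.77), Clec4g (6.74) and Cdh5 (6.52) in OGT-KO, where Clec4g could not be separated from Lyve1 or from Cdh5 by counting error. In OGT control the order behind Eng was Clec4g (10.5), Dnase1l3 (6.91), Stab2 (5.88) and Cdh5 (5.78), the last 2 not separable. Lyve1 ranked 3 of 10 in OGT-KO and 9 of 10 in OGT control, and Dnase1l3 ranked 8 and 3. Vwf was lowest in OGT-KO, at 1.03, and in OGT control, at 0.790.

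Each OGA pair was 1 library against 1, so no test was made within a pair, and edgeR over both times called no marker. At 14 days none of 10 passed 2-fold, where 0.839% of all genes did, and log2 ratios ran from -0.42 (Vwf) to 0.55 (Lyve1). Vwf had 8.59 CPM in OGA-KO against 11.5 in OGA control (232 and 283 counts, counting interval -0.68 to -0.17), the lowest level among the 6 libraries, and Clec4g had 40.5 against 32.8 CPM (log2 0.30, 0.17 to 0.44). At 28 days none of 10 passed 2-fold, where 2.57% of all genes did, and the ratios ran from -0.10 (Kdr) to 0.79 (Lyve1). Vwf then had 11.5 against 11.3 CPM, and Clec4g 39.3 against 37.6. Lyve1 was the only marker whose interval lay above 0 at both times, with 0.55 (0.13 to 1.01) at 14 days and 0.79 (0.31 to 1.33) at 28 days. Its levels of 4.29 and 3.56 CPM in OGA-KO, against 2.90 and 2.02 CPM in OGA control, remained below the 5.29 CPM of OGT control.

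For the OGA-KO effect over both times, edgeR called 0 of 10 markers and 0.0333% of all genes. At an unadjusted p under 0.05 it took in 1 marker, Lyve1 (log2 0.68, edgeR adjusted p = 0.281), and DESeq2 called 0, leaving 2 markers without an adjusted p. The OGT-KO and OGA-KO effects differed by the edgeR contrast for 7 of 10 markers, the same 7 that were called for OGT-KO, and for 44.1% of all genes. The mean log2 ratio of sinusoidal markers exceeded that of general ones by 0.28 (0.16 to 0.41) at 14 days and 0.19 (0.05 to 0.32) at 28 days. Without Stab1 and Lyve1 these differences were 0.22 and 0.016, and without Vwf and Pecam1 they were 0.17 and 0.25. Between the OGA controls, 28 days over 14 days, the same difference was -0.02 (-0.15 to 0.12) and none of 10 markers passed 2-fold, where 0.927% of all genes did.

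Other endothelial genes were taken from lists of known function, and the all-gene median beside which they stand was -0.00 in the OGT pair. Their counts are to be read beside the 26.1% of all genes that rose and the 26.6% that fell by edgeR in OGT-KO. The libraries are of whole liver, and the part of other cells in the values of these lists was not tested. The sinusoidal list held 15 further genes, of which 5 rose and 1 fell, a rising share near that of all genes, with a median log2 ratio of 0.36. Those with the largest ratios were Mrc1, the mannose receptor, shared with macrophages (1.46, 2141 against 642 counts), Maf, a transcription factor of sinusoidal endothelium and macrophages (1.45), Clec1b, a lectin-like receptor shared with platelets (1.27), and Bmp6, the ligand that informs hepatocytes of iron load (0.71, edgeR adjusted p = 0.0521). Oit3 fell (-0.55, a call lost without the line term), Gata4, a factor required for sinusoidal identity in mice, had 0.36 (edgeR adjusted p = 0.0541), and the Fc receptor Fcgr2b had -0.11 (adjusted p = 0.483). Gata4, Fcgr2b and Oit3 were named after their values were seen.

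Of 18 genes of ordinary capillaries, large vessels and their basement membrane 15 had a row, and of these 10 rose in OGT-KO and none fell, with a median of 1.70 over the 14 with at least 1 CPM. Emcn, Selp, Ackr1, Cav1 and Gja5 did not pass the test. Cd34, a surface protein of continuous endothelium and of progenitors, had 252 against 21 counts (3.20, 2.67 to 4.03). Col4a2 (2.59) and Col4a1 (2.49), chains of basement membrane collagen that stellate cells also make, and Thbd, the thrombin receptor thrombomodulin (2.29), rose as well. Plvap, a protein of endothelial pores and caveolae named after its values were seen, had 5794 against 1155 counts (2.05). Ephb4 rose but was lowest in OGT control, with 35.5 CPM in OGT-KO against 13.8, and 29.8 to 34.6 CPM in the OGA libraries. Without the line term 6 of the 15 were called, and Ephb4 was not among them.

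**Figure D4:**
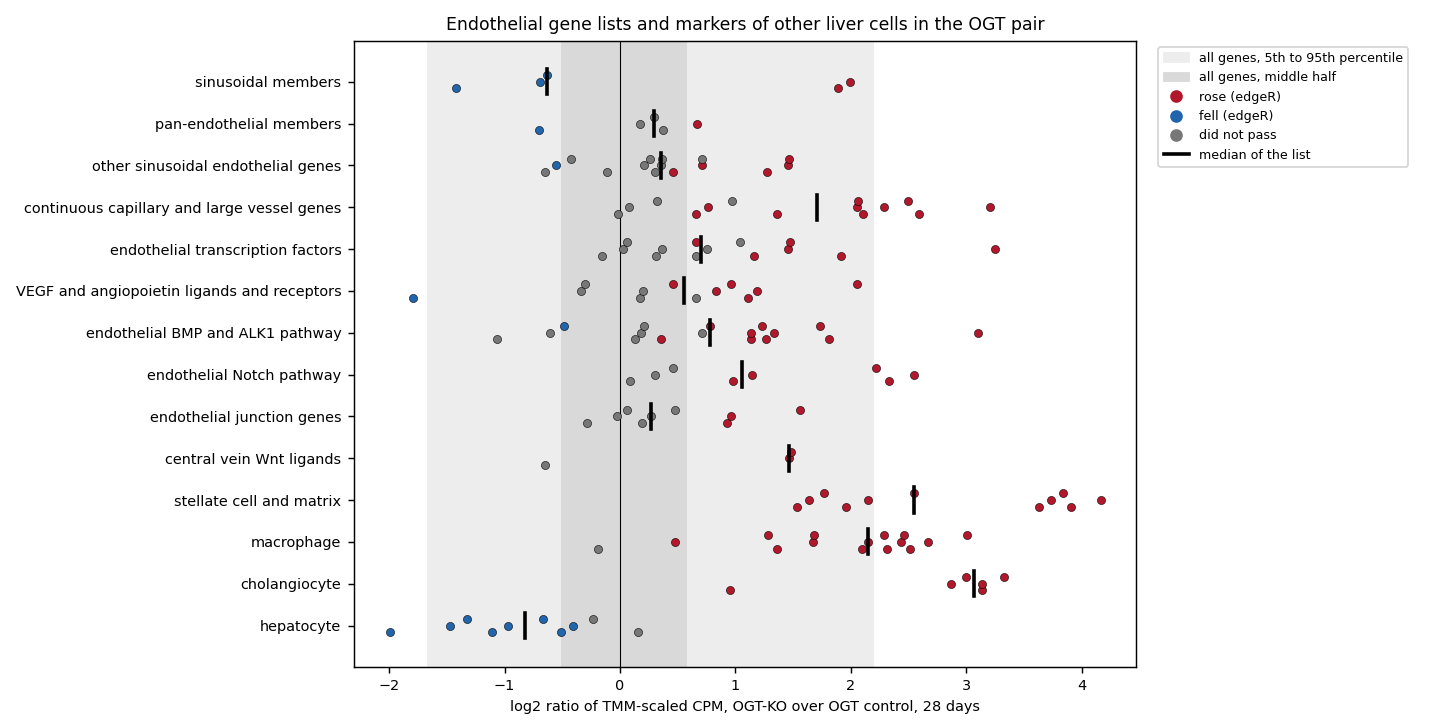
Log2 ratio of OGT-KO over OGT control for each listed gene with at least 1 CPM in that pair; points are genes, coloured by the edgeR call, black bars are list medians and grey bands the spread of all genes. The sinusoidal markers lie on both sides of 0, and the capillary, stellate, macrophage and cholangiocyte lists lie mostly to the right.

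Of 12 VEGF and angiopoietin genes with a row 6 rose and 1 fell in OGT-KO (median 0.56). Their summed level, with TMM scaling, was 246 CPM in OGT-KO against 323 in OGT control, and 375 to 419 CPM in the OGA libraries. Nrp1 and Vegfa were the largest parts of that sum in each library, so it does not describe the list as a whole. Vegfa had 66.7 CPM in OGT-KO against 84.3 in OGT control, and 167 to 210 CPM in the OGA libraries. It was not called in the OGT pair (log2 -0.34, edgeR adjusted p = 0.0792). By library totals its log2 ratio there was 0.03 (edgeR adjusted p = 0.836). Nrp1, a VEGF co-receptor that other liver cells also make, fell with 1065 against 3055 counts (-1.79). It had 38.1 CPM in OGT-KO against 132 in OGT control, and 62.6 to 72.4 CPM in the OGA libraries. Angpt2, an antagonist ligand of TIE2 (2.05), Nrp2 (1.19) and the lymphatic growth factor Vegfc (1.11) rose. Nrp2 was lowest in OGT control, with 15.4 CPM in OGT-KO against 6.71 in OGT control, and 9.13 to 14.6 CPM in the OGA libraries. Vegfb and Tie1 also rose and were lowest in OGT control. Vegfb had 7.02 CPM in OGT-KO against 3.90 in OGT control, and 14.8 to 18.2 CPM in the OGA libraries. Tie1 had 15.7 CPM in OGT-KO against 8.01 in OGT control, and 15.6 to 21.3 CPM in the OGA libraries. None of these 12 was called rising or falling without the line term. Of 17 genes of the BMP pathway in which endoglin acts, 10 rose and 1 fell (median 0.78). Id1, a direct BMP target, had 1549 against 148 counts (3.10), the inhibitory Smad7 and Smad6 had 1.81 and 1.73, and Gdf2, which encodes the endoglin ligand BMP9 made by stellate cells, had 1.33.

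Of 14 endothelial transcription factors with a row 6 rose and none fell (median 0.70), led by the flow-responsive Klf4 (3.24), the ETS factors Fli1 (1.91) and Ets1 (1.47), and Maf. Among 8 Notch genes 5 rose and none fell (median 1.06), with the ligands Jag1 (2.55) and Dll1 (2.33), the target Heyl (2.22) and the endothelial receptor Notch4 (1.14). Dll1 stood at 4.01 CPM in OGT-KO against 0.736 in OGT control (112 and 17 counts), and at 4.24 to 7.56 CPM in the OGA libraries, so OGT control was the library apart. Of 9 junction genes 3 rose and none fell (median 0.27), a share near that of all genes: Mcam (1.56), Cldn5 (0.96) and Jam2 (0.93), while Esam had 0.48 (edgeR adjusted p = 0.0967). Cldn5 too had its lowest level in OGT control, with 3.12 CPM in OGT-KO against 1.56 in OGT control, and 4.08 to 5.12 CPM in the OGA libraries. Of the 3 ligands by which central vein endothelium sustains Wnt signalling in hepatocytes, Wnt9b (1.48, 102 against 29 counts) and Rspo3 (1.46, 301 against 89) rose. Wnt2 had 51 against 67 counts (-0.65, edgeR adjusted p = 0.195). Wnt9b was lowest in OGT control, with 3.65 CPM in OGT-KO against 1.26 in OGT control, and 1.70 to 3.10 CPM in the OGA libraries. The calls of Wnt9b, Notch4, Dll1, Cldn5 and Jam2 were lost without the line term. In that fit 3 sinusoidal, 4 transcription factor, 5 BMP, 3 Notch and 1 junction genes rose and none fell. By library totals 11 sinusoidal, 10 transcription factor, 9 VEGF, 14 BMP, 7 Notch and 6 junction genes rose, so these counts depended on the scaling. For OGA-KO, edgeR called 0 of the 132 listed genes other than the markers, with 25 at an unadjusted p under 0.05, and DESeq2 called 0, leaving 60 without an adjusted p.

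Markers of other cells moved in the same library. Macrophage genes, 15 in all and none at 0 counts, summed to 1546 CPM in OGT-KO against 416 in OGT control, and 218 to 275 CPM in the OGA libraries. Of these 14 rose by edgeR in OGT-KO (median 2.15), among them Lgals3 (3.00), Ccr2 (2.67), Cd163 (2.51) and C1qb (2.46). Between the controls at 28 days macrophage genes summed to 416 CPM in OGT control against 218 in OGA control, a pair in which Lyve1 was higher and Stab1 lower (log2 -0.40). Stellate cell and matrix genes, 11 with a row, summed to 2454 CPM in OGT-KO against 296 in OGT control, and all 11 rose (median 2.55), with Col1a1 (4.17), Col1a2 (3.91), Lum (3.84) and Acta2 (3.73) ahead. Cholangiocyte genes, 6 with a row, summed to 402 against 64.2 CPM and all rose (median 3.07), led by Krt7 (3.33), Tspan8 (3.14), Epcam (3.14) and Krt19 (3.00). Of 10 hepatocyte genes 8 fell (median -0.82), with Serpina1c (19781 against 65218 counts), Ttr (-1.47), Cyp3a11 (-1.32) and Ass1 (-1.11) lowest. By library totals 5 hepatocyte genes fell and 1 rose, Tat (log2 0.53, edgeR adjusted p = 0.0108), and Alb, Apob and Cps1 were no longer called. Without the line term 11 macrophage, 10 stellate and 5 cholangiocyte genes rose and 4 hepatocyte genes fell, with Lgals3 and Ass1 not called. The part of these cells in the differences of the markers and of the other endothelial lists was not tested.

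Lymphatic and platelet markers were thinly covered. Of 5 lymphatic genes 2 had a row, Flt4 (0.46), which rose, and Prox1 (-0.23, edgeR adjusted p = 0.105), which hepatocytes also make. Of 7 platelet genes 2 had a row and both rose, Itgb3 (2.26), which other cells also make, and Itga2b (1.04, 104 against 41 counts). Itga2b had 3.72 CPM in OGT-KO against 1.78 in OGT control, and 4.24 to 5.25 CPM in the OGA libraries. The calls of Flt4 and Itga2b were lost without the line term. Their part in the Lyve1, Vwf and Pecam1 values was not tested.

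By the smallest distance between centred log2 CPM profiles over the 6 libraries, among 9325 genes with at least 10 CPM in a library, the genes most like Stab1 were Adgrl1 (distance 0.13), Slco3a1 (0.16), Plekho1 (0.22), Lamb2 (0.22) and Ttyh3 (0.22). Those most like Stab2 were Cab39l (0.06), Rxrb (0.08), Parva (0.10), Txlng (0.10) and Pcgf5 (0.10). Dnase1l3 was most like Gcgr (0.12), F2 (0.13), Marc1 (0.14), Nipsnap1 (0.15) and Scrn2 (0.17). The mean of the general markers was most like Ube4b (0.07), Pcsk7 (0.08), Vapa (0.08), Dqx1 (0.08) and Rhoa (0.08). No other gene of the endothelial lists was among them.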

How the data were processed

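Whole liver messenger RNA of 6 groups was analysed, 1 library of 3 pooled mice per group. The authors deposited raw counts per Ensembl gene, and a table of CPM, the count divided by a library total without a composition factor, per the file headers and values. The submitters' processing notes name STAR, Subread, edgeR and build mm39, with no versions or settings, so the use of strand in counting is not given in the sources used here. The filter behind the 12027 rows is not stated. The lowest sum of a row over the 4 OGA libraries was 28 counts, while 56 rows were at 0 in both OGT libraries. Symbols came from GENCODE M21 (12019 identifiers matched), Oga through its older symbol, and exon lengths from the same annotation, which is of build GRCm38.

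Ratios used TMM scaling with a prior count of 2 (edgeR 4.0.16, R 4.3.3), and intervals were exact Clopper-Pearson intervals at 95%. For the mean differences between marker groups they came from Poisson variances of the counts. The deposited CPM was used only to check the counts. The edgeR quasi-likelihood test took all 6 libraries and 12027 genes (filterByExpr removed none), with Benjamini-Hochberg adjusted p under 0.05 as threshold. DESeq2 1.42.0 was an alternative. Scripts were tested on simulated data. Markers, lists and tests were chosen with earlier results of these data known. Besides the markers, Ogt and Oga, the genes named were up to 4 per list with the largest OGT ratios at 1 CPM or more, the 5 nearest profiles, and genes sharing exons with a marker. Any gene named beyond these was chosen after its values were seen. Rose and fell are kept for genes past the edgeR test.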

Additional observations from a re-analysis of the deposited data

Results flagged for a closer look

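For 7 of the 10 markers the OGT-KO effect differed from the OGA-KO effect by the edgeR contrast of both effects, where 44.1% of all genes did. The differences in log2, OGT-KO minus OGA-KO, were 1.90 for Stab1 (edgeR adjusted p = 0.000532), 1.22 for Lyve1 (0.0155), 0.67 for Eng (0.0104), -0.73 for Kdr (0.02), -0.74 for Stab2 (0.00757), -0.82 for Clec4g (0.0125) and -1.48 for Dnase1l3 (0.00161). The adjusted p of Stab1 and Dnase1l3 stayed below the threshold in every alternative fit (at most 0.0214 and 0.0217). DESeq2 called these 2 alone, and the adjusted p of the other 5 reached 0.13 to 0.38 over the alternatives. The knocked out genes, the lines and the number of libraries differ between these effects.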

How the results depend on the processing

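With TMM and 1 CPM the size rule took in 99, 304 and 109 genes for OGA-KO at 14 days, OGA-KO at 28 days and the OGA controls. At 5 CPM it took in 27, 160 and 45, and with a prior count of 10 it took in 48 for OGA-KO at 14 days. The edgeR count of 6332 for OGT-KO was 2902 by DESeq2 and 3035 without the line term. The count of 4 for OGA-KO was 2 with DESeq2 size factors, 36 by DESeq2, 0 without the line term (258 at an unadjusted p under 0.05) and 1 without the day term. With 1 OGA library left out and no day term, chosen after seeing the data, it ran from 0 to 317, the highest without OGA-KO at 14 days. The sinusoidal minus general difference in the OGT pair (0.07) was 0.28 by summed counts and -0.93 by medians. It was -1.08 without Stab1 and Lyve1, the sinusoidal markers that rose, and 0.18 without Vwf and Pecam1. For OGA-KO at 14 days (0.28) it was 0.13 by summed counts and 0.12 by medians, and at 28 days (0.19) it was 0.077 by summed counts, 0.12 by medians and 0.016 without Stab1 and Lyve1. The causes were not tested.

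Of the 7 markers called for OGT-KO, Stab1, Dnase1l3 and Lyve1 stayed called in each alternative (adjusted p at most 0.0115, 0.0182 and 0.035). The number called was 8 by library totals, 5 without the line term and 4 by DESeq2. The OGT-KO minus OGA-KO contrast, called for 7 markers, was called for 2 by DESeq2. No called marker changed direction under any alternative run. No paired analysis was possible because each group had 1 library and the labels give no replicate numbers.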
